A study of Mus musculus with 6 samples.

Results

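The nuclear genes of respiratory complexes II, III and IV and of cytochrome c were followed in mouse bone marrow-derived macrophages driven towards osteoclasts with or without Visomitin. The 35 genes were fixed by name, as the subunits and assembly factors of succinate dehydrogenase, cytochrome bc1, cytochrome c and cytochrome c oxidase, and all 35 were found among the 57180 genes of the deposited table. The first group of 3 libraries, Visomitin 1 to 3, came from wild-type macrophages kept for 5 days in osteoclast-inducing culture with Visomitin, and the second, Control 1 to 3, from the same culture without it. Visomitin, also called SkQ1, is a plastoquinone antioxidant carried into mitochondria by a lipophilic cation. Its dose, the vehicle, the mouse strain and whether the libraries came from separate mice or cultures are unstated in the labels. A p-value here therefore weighs the groups against library-to-library spread that may be technical. Levels are given as TPM, a share of all transcripts in a library that is corrected for gene length. TPM keep no read counts, and sequencing depth is unknown for all 6 libraries.

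The respiratory chain passes electrons to oxygen along the inner mitochondrial membrane. Complex II takes them from succinate and hands them to ubiquinone, complex III moves them from ubiquinone to the small soluble carrier cytochrome c, and complex IV, cytochrome c oxidase, passes them to oxygen, with proton pumping at complexes III and IV. Osteoclasts are rich in mitochondria, and respiratory genes are known to be induced as macrophages become osteoclasts.

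Of the 35 genes, 9 fell with Visomitin, 1 rose and 25 did not pass the test (limma across all genes on log2(TPM + 1), Benjamini-Hochberg adjusted p under 0.05). Among all 11753 genes tested, 5.03% fell and 2.08% rose, so the share of members that fell, 25.7%, was above the background. The members were chosen with earlier results of these data known, so this excess is a description and not a test. The genes that fell were Sdha of complex II, Uqcrc1, Uqcrc2, Uqcrfs1, Uqcr10 and Cyc1 of complex III, cytochrome c (Cycs), and the assembly factors Cox10 and Sco2 of complex IV. Cox6a2, the heart and skeletal muscle form of a complex IV subunit, was the gene that rose. The median log2 difference was -0.23 over the members and -0.03 over all genes tested, and 32 of the 35 members had a difference below 0. The Visomitin range lay wholly below the Control range for 17 members, where 18.4% of all genes tested did so. Complex III and cytochrome c held 6 of the 9 genes that fell, out of 10, against 1 of 6 for complex II and 2 of 19 for complex IV. These counts describe the complexes, and the difference between complexes was not tested.

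**Figure D1:**
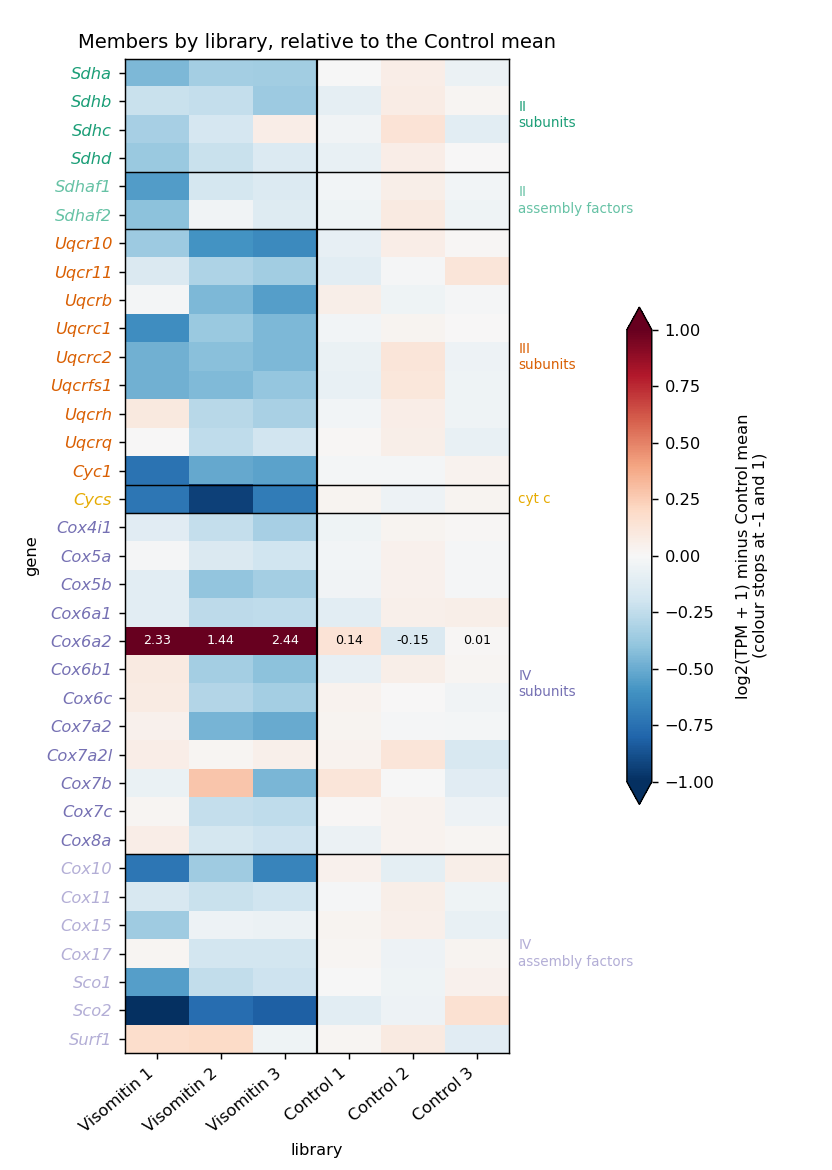
Level of each of the 35 genes (down) in each library (across), as log2(TPM + 1) minus the mean of the 3 Control libraries. Blue is below and red above the Control mean, and the colour stops at -1 and 1, so the Cox6a2 values are written in. Complex III genes and Cycs are blue in most Visomitin libraries, and several short complex IV subunit genes are blue in Visomitin 2 and 3 but near the Control mean in Visomitin 1.

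Osteoclast transcripts moved with these genes. All 12 osteoclast markers examined fell, where 5.03% of all genes tested did. Their summed level was 2983, 3594 and 3378 TPM in the Visomitin libraries, against 11292, 12242 and 12144 TPM in the Control libraries. The most abundant were Mmp9, a matrix protease, at 1476 ± 250.0 TPM with Visomitin and 3838 ± 124 TPM in Control, and Acp5, the acid phosphatase TRAP, at 1011 ± 64.0 TPM with Visomitin and 4298 ± 240.0 TPM in Control (SD, n = 3 each). Of 10 macrophage markers 3 rose (Mrc1, Mertk and Cx3cr1) and 0 fell, where 2.08% and 5.03% of all genes tested did. Their sums were 42120 to 47363 TPM in Visomitin libraries and 36440 to 40753 TPM in Control libraries. Most of each sum was Lyz2, a lysozyme, at 39910 ± 2020 TPM with Visomitin and 34410 ± 2180 TPM in Control (SD, n = 3 each). Lyz2 did not pass (limma adjusted p = 0.184). The Visomitin range lay above the Control range for 7 of the 10, where 11.9% of all genes tested did so, and overlapped it for 2. It lay below for 1, Cd68, at 1628 ± 112 TPM with Visomitin and 1870 ± 57.0 TPM in Control (limma adjusted p = 0.163). Bulk RNA cannot tell fewer osteoclasts from less respiratory RNA per cell, and the part of the osteoclast share in the results was not tested. The marker lists of neutrophils, lymphocytes and red cells each summed to at most 19.5 TPM in any library, and of the 1 neutrophil and 1 lymphocyte gene that could be tested 0 passed. Markers of stromal cells and osteoblasts summed to 80.5 to 166 TPM with Visomitin and 112 to 327 TPM in Control. Most came from the collagens Col1a1 and Col1a2, and 0 of 6 tested genes of the list passed. Of its osteoblast genes, Bglap was listed at 0, and Ibsp and Sp7 were at most 0.04 and 0.15 TPM. Runx2 was at 5.13, 4.45 and 4.13 TPM with Visomitin and 3.54, 2.18 and 4.56 TPM in Control (log2 difference 0.36, limma adjusted p = 0.337).

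In complex II, Sdha fell and the other 5 genes did not pass, all with values below 0. Sdha, the flavoprotein subunit that oxidizes succinate, was at 191, 205 and 205 TPM in Visomitin 1, 2 and 3, against 259.7, 273 and 250.25 TPM in Control 1, 2 and 3. Every Visomitin library lay below every Control library (log2 difference -0.38, SE 0.08, adjusted p = 0.023). Without Visomitin 2, Control 1, Control 2 or Control 3, or with no variance trend, the test no longer passed (adjusted p up to 0.0938), while the difference stayed between -0.41 and -0.35 with any library left out. The iron-sulfur subunit Sdhb averaged 190.0 ± 9.94 TPM with Visomitin and 230.2 ± 13.1 TPM in Control (SD, n = 3 each; log2 difference -0.28, limma adjusted p = 0.082). The membrane anchors Sdhc and Sdhd differed by -0.15 (limma adjusted p = 0.49) and -0.24 (limma adjusted p = 0.13), and the groups overlapped for Sdhc only. Of the assembly factors, Sdhaf1, which serves the iron-sulfur subunit, had 3.73, 5.17 and 5.33 TPM with Visomitin and 5.81, 6.24 and 5.82 TPM in Control (-0.29, adjusted p = 0.29). Sdhaf2, which attaches the flavin to Sdha, differed by -0.19 (adjusted p = 0.37). Summed over the 6 genes, complex II transcripts were at 755 ± 36.2 TPM with Visomitin and 912 ± 44.3 TPM in Control (SD, n = 3 each).

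Promoters were searched for short motifs of factors known to bind promoters of respiratory genes. The windows were those of RefSeq on GRCm38.p6, running from 250 bases before to 50 after the gene start. Both strands were read for NRF1 (GCGC, any 2 bases, GCGC), GABPA (CCGGAAGT), YY1 (AAGATGGCG) and a half-site of ESRRA (AAGGTCA). No pair of matches overlapped in the windows printed here. Of the 35 members 26 have a window in the table. The NRF1 motif stood in 4 of these (15.4%) and in 13.5% of the 11292 windows of tested genes, or 6.23% of all windows. The GABPA motif stood in 5 (19.2%), against 8.65% of the windows of tested genes and 3.89% of all. The YY1 motif was in 1 (3.85%, against 3.29% of tested genes and 1.40% of all), and so was the ESRRA half-site (3.85%, against 3.18% and 4.72%). A match is a string of letters, not a bound site. Of the 7 members that fell and have a window, 2 held the NRF1 motif, 1 GABPA, 1 YY1 and 0 the ESRRA half-site. Sdhd, Uqcr11, Uqcrh, Cox6a1, Cox8a and Cox15 held a motif and did not pass the limma test. Cycs, Sco2, Uqcr10 and Uqcrfs1 fell and held none. For each complex the gene with the lowest p that holds a motif is shown, with motif matches in capitals. The Sdha window lies at chr13:74350191-74350490 on the minus strand and holds 3 NRF1 matches.

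Sdha: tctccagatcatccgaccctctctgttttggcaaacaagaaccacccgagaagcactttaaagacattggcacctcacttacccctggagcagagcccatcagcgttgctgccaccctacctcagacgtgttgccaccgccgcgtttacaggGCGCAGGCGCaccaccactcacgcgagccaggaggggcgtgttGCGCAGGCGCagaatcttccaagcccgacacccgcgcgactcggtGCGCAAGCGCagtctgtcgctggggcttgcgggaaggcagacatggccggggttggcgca

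In complex III, 5 of 9 subunit genes fell, 0 rose and the test was not passed by 4, where 5.03% of all genes tested fell. The median log2 difference was -0.44. The 5 include the genes for both electron-carrying subunits encoded in the nucleus, Cyc1 and Uqcrfs1, and for both core proteins. Cyc1, cytochrome c1, which gives electrons to cytochrome c, was at 105, 123 and 121 TPM in Visomitin 1, 2 and 3, against 174, 173 and 181 TPM in the Control libraries. The gap between the groups was far wider than the spread within either (log2 difference -0.60, SE 0.09, adjusted p = 0.0065). Cyc1 kept its call under all 16 alternative settings, with adjusted p from 0.000798 to 0.0379. Uqcrfs1, the Rieske iron-sulfur protein, had 139, 143 and 148 TPM with Visomitin and 185, 211 and 189 TPM in Control (-0.44, SE 0.08, adjusted p = 0.018). The core proteins Uqcrc1 and Uqcrc2, which form the matrix base of the complex, differed by -0.48 (adjusted p = 0.0145) and -0.45 (adjusted p = 0.0166). Uqcrc1 was at 216, 258 and 245 TPM with Visomitin and 327, 339.85 and 335 TPM in Control. Its promoter window, at chr9:108936398-108936697 on the plus strand, holds 2 NRF1 matches, both after the gene start.

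Uqcrc1: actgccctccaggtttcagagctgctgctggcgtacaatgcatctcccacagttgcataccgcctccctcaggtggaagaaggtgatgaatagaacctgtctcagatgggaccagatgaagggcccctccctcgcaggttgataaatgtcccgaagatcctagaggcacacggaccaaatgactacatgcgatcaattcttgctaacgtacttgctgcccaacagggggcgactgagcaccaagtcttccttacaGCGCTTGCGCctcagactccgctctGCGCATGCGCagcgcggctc

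The smaller subunits of complex III behaved less uniformly. Uqcr10, the shortest transcript of the set, fell, with 684, 583 and 564 TPM in Visomitin 1, 2 and 3, against 830.49, 923 and 889 TPM in Control (-0.53, SE 0.09, adjusted p = 0.0141). Uqcrb, a subunit near the ubiquinone site, had 329.56, 245 and 227 TPM with Visomitin and 348, 323 and 330.08 TPM in Control (-0.34, adjusted p = 0.17). Here Visomitin 1 lay inside the Control range while Visomitin 2 and 3 lay below it. Uqcrh, the hinge protein that helps cytochrome c dock, had 569, 439.5 and 424 TPM with Visomitin and 522, 557 and 516 TPM in Control (-0.17, adjusted p = 0.42), so Visomitin 1 lay above all Control libraries and Visomitin 2 and 3 below them. Uqcr11 and Uqcrq differed by -0.27 (adjusted p = 0.12) and -0.15 (adjusted p = 0.37). The calls of Uqcr10, Uqcrc1, Uqcrc2 and Uqcrfs1 were each lost in 3 or 4 of the 6 fits that left out a library, and Uqcrfs1 also with no variance trend (adjusted p up to 0.0758 over all alternatives). Uqcr10 also missed the threshold after median-ratio scaling and with no filter on low values.

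Cytochrome c itself gave the lowest p among the genes that fell. Cycs was at 22.2, 19.0 and 22.6 TPM in Visomitin 1, 2 and 3, against 38.0, 35.8 and 37.95 TPM in Control 1, 2 and 3. It was thus 1.72-fold lower on the log2(TPM + 1) scale (log2 difference -0.78, SE 0.10, adjusted p = 0.0037), and the call held under all 16 alternatives. Cycs has a retrocopy, Gm10053, which was examined after its values were seen. Of the 31-base words of Gm10053, 96.6% also occur in Cycs, so reads may be split between them, and the counts of both are uncertain. Gm10053 was listed at 50.3, 47.0 and 47.6 TPM with Visomitin and 95.1, 107 and 98.5 TPM in Control, above Cycs in each library (log2 difference -1.04, SE 0.08, adjusted p = 0.00030). Summed over the pair, the level was 69.6 ± 3.26 TPM with Visomitin and 137 ± 4.84 TPM in Control (SD, n = 3 each), and the groups did not overlap in the sum either.

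Of the 12 subunit genes of complex IV, 0 fell, 1 rose and 11 did not pass; by unadjusted limma p under 0.05, 4 of the 12 differed, Cox6a2 among them, where 24.4% of all genes tested differed at that threshold. Leaving aside Cox6a2, their mean levels ran from 170 TPM (Cox7b) to 1019 TPM (Cox4i1) with Visomitin and from 176 TPM (Cox7b) to 1193 TPM (Cox4i1) in Control. Cox4i1, a regulatory subunit, had 1101, 1010.3 and 947 TPM with Visomitin and 1159, 1218 and 1201 TPM in Control. The groups did not overlap, and the difference did not pass (-0.23, SE 0.08, adjusted p = 0.125). Cox5b, a zinc-binding subunit, likewise lay lower without overlap (-0.28, SE 0.09, adjusted p = 0.105). For Cox5a, Cox6a1, Cox6b1, Cox6c, Cox7a2, Cox7c and Cox8a the groups overlapped, with differences from -0.31 (Cox7a2) to -0.11 (Cox8a) and adjusted p from 0.171 to 0.522. Cox7a2l, which joins complexes III and IV into supercomplexes, was at 295 ± 4.66 TPM with Visomitin and 287 ± 27.9 TPM in Control (SD, n = 3 each; 0.05, 95% interval -0.16 to 0.25). Cox7b scattered within the Visomitin group, with 168, 214 and 128 TPM with Visomitin and 191, 175 and 163 TPM in Control (-0.08, 95% interval -0.47 to 0.31). Cox7c shares 13.1% of its 31-base words with the pseudogene Gm12338, listed at 325 to 340.3 TPM with Visomitin and 159 to 515 TPM in Control, so its level is uncertain. Cox4i1 overlaps Emc8 on the other strand, at 48.7 to 64.95 TPM with Visomitin and 50.7 to 56.4 TPM in Control.

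**Figure D2:**
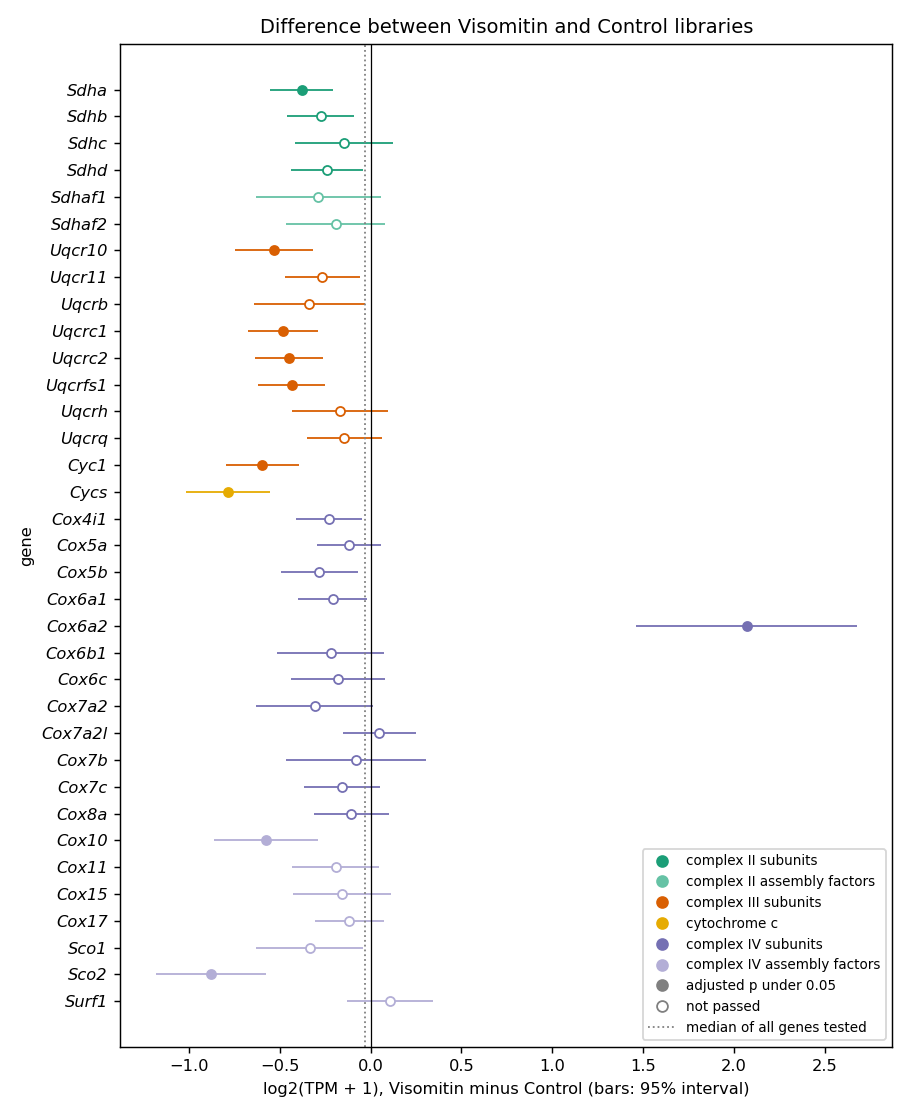
Log2(TPM + 1) difference, Visomitin minus Control (across), for each gene (down), with 95% intervals from limma. Filled points passed an adjusted p of 0.05. Filled points stand in complex III, Cycs, Sdha, Cox10 and Sco2 below 0, and Cox6a2 stands alone at 2.07.

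The count for complex IV subunits was different without Visomitin 1. Without that library 6 of the 12 fell (Cox4i1, Cox5b, Cox6b1, Cox6c, Cox7a2 and Cox7c), and their median log2 difference was -0.25, against -0.17 with all libraries. In the same fit 16 of the 35 members fell, including 8 of 10 in complex III and cytochrome c, where 4.77% of all genes tested fell. Cox6a2 was again the 1 member that rose, where 3.57% of all genes tested rose. The filter was still the one set on all libraries, which Cox6a2 passed through the Visomitin libraries alone. Its call in this fit is therefore not evidence of its own. Without Visomitin 1 the Visomitin range lay below the Control range for 28 members, against 21.5% of all genes tested. Cox7a2 shows the pattern, with 288 TPM in Visomitin 1 but 201 and 196 TPM in Visomitin 2 and 3, against 284, 277 and 276 TPM in Control. Cox6b1 was at 1209 TPM in Visomitin 1, 900.15 and 855 TPM in Visomitin 2 and 3, and 1076 to 1187 TPM in Control. Leaving out each of the other libraries gave 5 members that fell without Visomitin 2, where 2.59% of all genes tested fell, and 8 without Visomitin 3, where 4.76% fell. Without Control 1 it was 4 members (2.08% of all genes), without Control 2 it was 3 (2.81%) and without Control 3 it was 4 (2.46%). With array weights, by which a library that departs from the others counts for less, 22 members and 13.4% of all genes tested fell. The weights were 0.257, 4.164 and 0.776 for Visomitin 1, 2 and 3, so the Visomitin side of this fit rests largely on Visomitin 2. The Control weights were 1.283, 1.448 and 0.648.

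Visomitin 1 departed from the other Visomitin libraries by transcript length. Among the 15 members whose principal transcript in GENCODE is under 1000 bases, Visomitin 1 was the highest of the 3 Visomitin libraries for 14 and the lowest for 0. Among the 20 longer members it was the highest for 4 and the lowest for 13. The median of Visomitin 1 minus the mean of Visomitin 2 and 3 was 0.26 on the log2(TPM + 1) scale for short members and -0.15 for longer ones. Over the 11554 tested genes with a transcript length, 98.3% of those tested, the medians were 0.13 for 1214 short genes and -0.18 for 10340 longer ones. The part of this tilt in the results was not tested. Across the 35 members Spearman's rho between length and this deviation was -0.81, a description of a single library over genes that share it. Most complex IV subunits, such as Cox7a2 and Cox6b1, have short transcripts, and Sdha, Cyc1, Uqcrc1 and Cox10 have longer ones. A correction of each library for length and GC content, chosen after seeing the data, gave 13 members that fell, 4 of them in complex IV. In that fit 8.74% of the 11554 genes fell, against 5.03% of all genes tested without the correction.

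**Figure D3:**
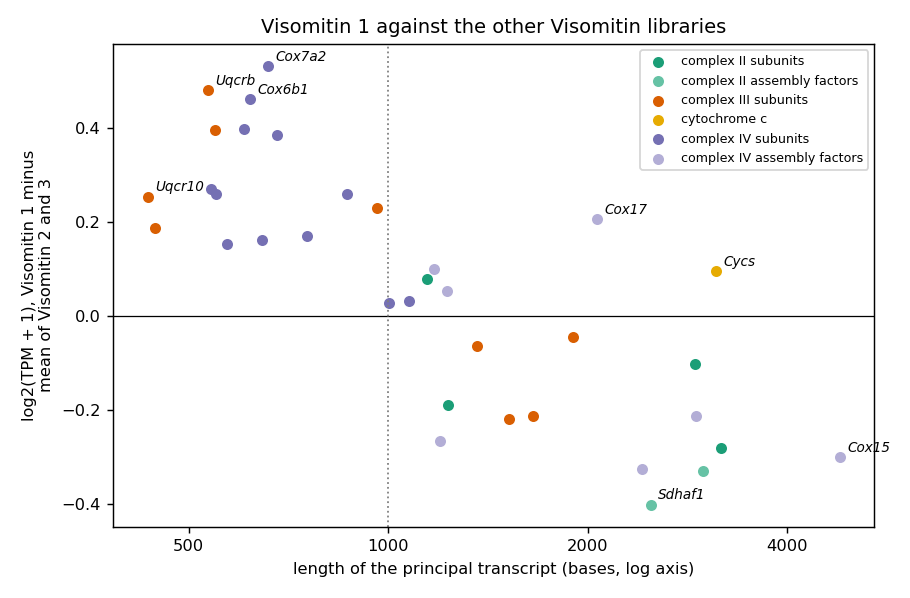
Length of each member's principal transcript in bases (log axis) against log2(TPM + 1) in Visomitin 1 minus the mean of Visomitin 2 and 3. The dotted line marks 1000 bases. The 15 points left of it are above 0, and 13 of the 20 to the right are below 0.

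Cox6a2 rose, though its level stayed low, and its counterpart Cox6a1 did not pass the test. Both encode subunit 6A of complex IV, Cox6a1 the form found in most tissues. Cox6a2 was at 6.62, 3.12 and 7.26 TPM in Visomitin 1, 2 and 3, against 0.67, 0.37 and 0.53 TPM in Control 1, 2 and 3. The groups were far apart, with Visomitin 2 lower than its companions, and the ratio of mean TPM was 10.8 (log2 difference 2.07, SE 0.27, adjusted p = 0.0037). The gene passed the low-value filter through the Visomitin libraries alone, so its p under that filter is not evidence of its own. With no filter on low values the adjusted p was 0.0363, the highest over 15 alternatives. The log2 difference was 0.93 with a pseudocount of 5 and 3.15 with 0.1, so its size is set in part by the pseudocount. Cox6a1 was at 880.35, 789 and 795 TPM with Visomitin and 878, 981 and 987 TPM in Control. These ranges overlapped at Visomitin 1 (-0.21, 95% interval -0.40 to -0.02, limma adjusted p = 0.17).

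The log2 ratio of Cox6a2 to Cox6a1, each with 1 TPM added, was -6.85, -7.58 and -6.59 in Visomitin libraries and -9.04, -9.49 and -9.33 in Control libraries. The groups did not overlap. The difference was 2.28, with p = 0.1 in an exact permutation test (two-sided), and 3 against 3 libraries cannot give a smaller one. Cox6a2 still made up little of the pair, 0.746%, 0.394% and 0.905% of their summed TPM with Visomitin and 0.0762%, 0.0377% and 0.0537% in Control. Itgad, the gene that overlaps Cox6a2 on the other strand, was listed at 0 in each Visomitin library and at 0.02 to 0.07 TPM in Control. Of 12 skeletal muscle markers 3 were listed at 0 in every library, among them the myosins Myh1 and Myh2, and 3 reached the filter. Their summed level was 15.4 to 18 TPM with Visomitin and 12.1 to 14.4 TPM in Control, most of it from Tnni2, a fast troponin. Tnni2 rose, with 12.7 ± 0.592 TPM against 8.01 ± 1.78 TPM in Control (SD, n = 3 each, log2 difference 0.62, limma adjusted p = 0.049). The other 2 tested markers, Acta1 (0.05, limma adjusted p = 0.94) and Mylpf (-0.24, limma adjusted p = 0.70), did not pass. Over all genes tested 2.08% rose.

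Another muscle-type isoform of complex IV moved the opposite way. Cox7a1, the heart and muscle counterpart of Cox7a2, had 23.5, 17.3 and 13.6 TPM in Visomitin 1, 2 and 3, against 34.9, 33.0 and 34.5 TPM in Control (-0.91, SE 0.17, adjusted p = 0.019). Its share of the summed Cox7a1 and Cox7a2 level was 7.32% ± 0.735 with Visomitin and 10.9% ± 0.252 in Control (SD, n = 3 each). Of the remaining tissue-restricted forms, Cox8b, Cox8c, Cox7b2 and the testis cytochrome c Cyct were listed at 0 in all libraries. Cox4i2, the lung form of Cox4i1, was at most 0.92 TPM. Cox6b2, the testis form of Cox6b1, had 6.61, 4.11 and 3.54 TPM in Visomitin 1, 2 and 3, against 2.17, 3.4 and 3.37 TPM in Control. Its groups did not overlap, with Visomitin higher, and the difference did not pass (0.51, SE 0.23, adjusted p = 0.213).

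**Figure D4:**
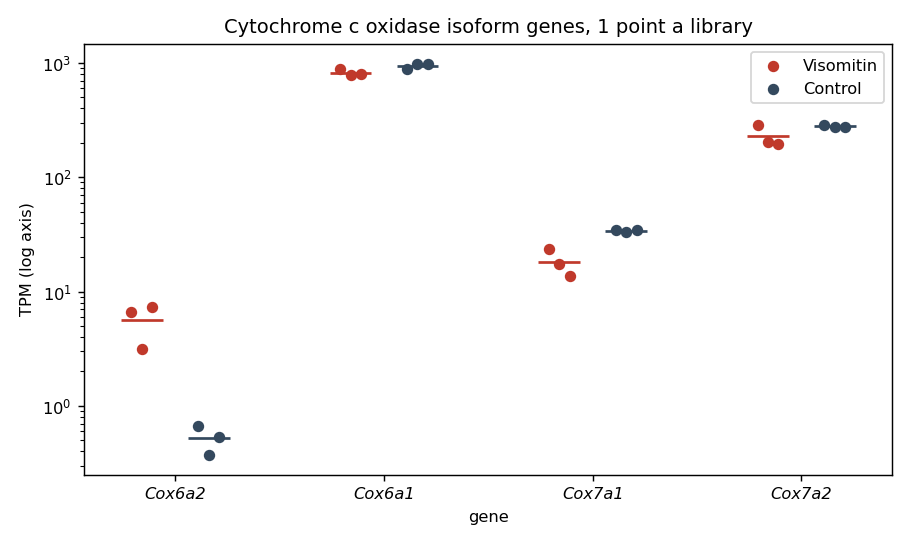
TPM (log axis) of Cox6a2, Cox6a1, Cox7a1 and Cox7a2, with 1 point a library and a line at each group mean; Visomitin stands left of Control. Cox6a2 is higher and Cox7a1 lower in all 3 Visomitin libraries, with Cox6a1 and Cox7a2 overlapping.

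Of the 7 assembly factors of complex IV, 2 fell, 0 rose and 5 did not pass, where 5.03% of all genes tested fell. Sco2, one of a pair of copper chaperones for subunit 2, was at 5.54, 7.02 and 6.71 TPM in Visomitin 1, 2 and 3, against 11.7, 12.2 and 14.1 TPM in Control. It had the largest drop of the members, 1.84-fold on the log2(TPM + 1) scale (log2 difference -0.88, SE 0.13, adjusted p = 0.0079), and kept its call under all 16 alternatives. Sco2 shares 65.6% of its 31-base words with the overlapping same-strand gene Tymp, listed at 1.5 to 1.72 TPM with Visomitin and 1.71 to 2.61 TPM in Control. It also overlaps Ncaph2 on the other strand, at 94.7 ± 7.59 and 83.95 ± 2.22 TPM (SD, n = 3 each), and whether reads were counted by strand is unstated, so its level is uncertain. The same holds for Sdhaf2, Cox4i1, Cox6c, Cox11, Cox15 and Surf1, which overlap expressed genes on the other strand. The partner chaperone Sco1 had 7.28, 9.23 and 9.53 TPM with Visomitin and 11.2, 10.8 and 11.5 TPM in Control, without overlap (-0.34, SE 0.13, adjusted p = 0.16).

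Cox10, which makes heme O, the first step from heme B to heme A, fell, with 12.7, 16.65 and 13.3 TPM with Visomitin and 22.2, 20.1 and 22.4 TPM in Control (-0.58, SE 0.13, adjusted p = 0.032). The call was lost in 5 of the 6 fits that left out a library, being kept only without Visomitin 2, and with no filter on low values. Cox15, the enzyme of the next step to heme A, did not pass (-0.16, adjusted p = 0.46). The copper factors Cox17 and Cox11 differed by -0.12 (adjusted p = 0.44) and -0.19 (adjusted p = 0.30). Surf1, a factor for early assembly, was at 44.9 ± 4.03 TPM with Visomitin and 41.6 ± 3.02 TPM in Control (SD, n = 3 each; 0.11, limma adjusted p = 0.57). The Cox10 window lies at chr11:64079423-64079722 on the minus strand and holds a GABPA match before the gene start and a YY1 match after it.

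Cox10: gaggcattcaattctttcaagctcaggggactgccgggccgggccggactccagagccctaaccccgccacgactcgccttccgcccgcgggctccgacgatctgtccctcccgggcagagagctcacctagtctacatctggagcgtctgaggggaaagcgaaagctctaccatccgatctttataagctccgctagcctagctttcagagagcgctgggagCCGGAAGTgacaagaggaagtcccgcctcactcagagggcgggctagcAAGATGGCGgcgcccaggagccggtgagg

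Genes outside the set that serve the same complexes were counted from lists, where 5.03% of all genes tested fell and 2.08% rose. Of 8 tested factors of complexes II and III, 2 fell and 0 rose, namely Uqcc1, needed for assembly of complex III (-0.66, adjusted p = 0.0037), and Hccs, which attaches heme to cytochromes c and c1 (-0.50, adjusted p = 0.046). Uqcc1 was at 67.0, 71.75 and 65.8 TPM with Visomitin and 102, 107 and 116 TPM in Control. Of 25 tested further subunits, isoforms and factors of complex IV, 3 fell and 0 rose. These were Cox7a1, the subunit Ndufa4 (-0.52, adjusted p = 0.035) and Fdxr, a reductase that feeds electrons to ferredoxin (-0.47, adjusted p = 0.034). The median log2 differences of these lists were -0.29 and -0.16.

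The mitochondrially encoded partners did not pass, 0 of 4. mt-Cytb, the cytochrome b of complex III, was at 1139 ± 146 TPM with Visomitin and 1154 ± 77.7 TPM in Control (SD, n = 3 each; -0.02, limma adjusted p = 0.91). mt-Co1, the catalytic subunit of complex IV, had 4949, 4295 and 3608 TPM with Visomitin and 5447, 4635 and 4792 TPM in Control (-0.22, adjusted p = 0.32). mt-Co2 and mt-Co3 scattered too widely to compare, with adjusted p of 0.31 and 0.51, and mt-Co3 was listed at 0.3 TPM in Visomitin 2 and 458 TPM in Visomitin 1. Reads of these genes can also match nuclear copies, so their levels are uncertain.

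Complex I and ATP synthase are the other complexes of oxidative phosphorylation, and beside them 9 of the 35 members fell (25.7%). Over all genes tested 5.03% fell and 2.08% rose. Of 37 nuclear subunits of complex I, 6 fell (16.2%) and 0 rose, with a median log2 difference of -0.24. The lowest p were those of the iron-sulfur subunit Ndufs1 (-0.50, adjusted p = 0.012), the acyl carrier protein Ndufab1 (-0.66, adjusted p = 0.028) and the accessory subunits Ndufa9 (-0.36, adjusted p = 0.0336) and Ndufb10 (-0.31, adjusted p = 0.0357). Of 16 nuclear subunits of ATP synthase, 5 fell (31.2%) and 0 rose, with a median of -0.28. They were led by Atp5g1 (-0.60, adjusted p = 0.00534) and Atp5g3 (-0.48, adjusted p = 0.00923), which encode the membrane ring, and by the catalytic-head subunits Atp5b (-0.45, adjusted p = 0.00969) and Atp5a1 (-0.33, adjusted p = 0.0468). Complex III with cytochrome c had 6 of 10 (60.0%) and a median of -0.44, complex II a median of -0.26 and complex IV, assembly factors included, a median of -0.18. The summed levels were 2826 ± 232 TPM with Visomitin and 3630.0 ± 111 TPM in Control for complex III with cytochrome c, without overlap. For complex IV they were 6528 ± 696 TPM with Visomitin and 7347 ± 177 TPM in Control (SD, n = 3 each). There Visomitin 1, at 7320 TPM, lay inside the Control range of 7181 to 7534 TPM. Visomitin 2 and 3 lay below it, at 6253 and 6013 TPM.

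**Figure D5:**
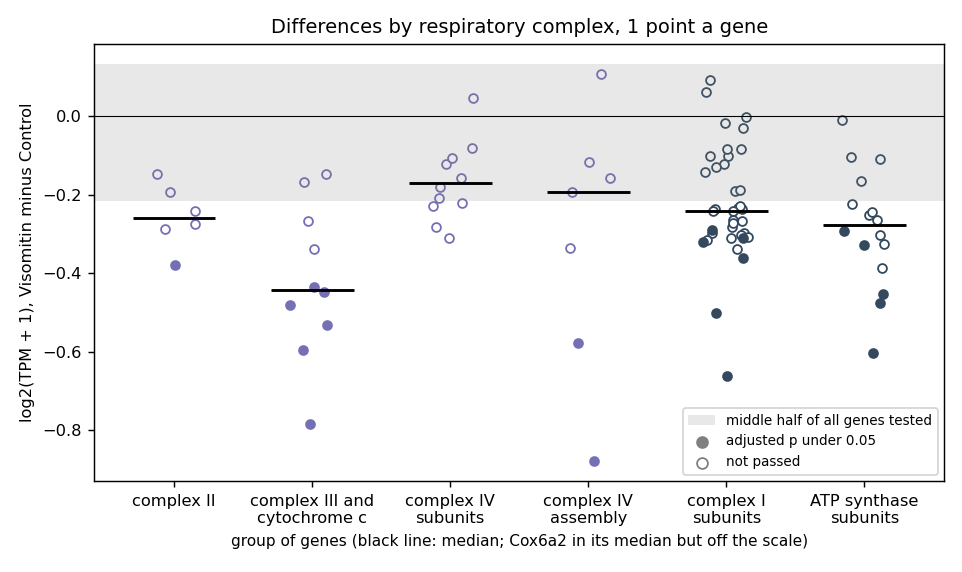
Log2(TPM + 1) difference, Visomitin minus Control, of each gene in 6 groups of respiratory genes, with the group median as a black line and filled points for an adjusted p under 0.05. The grey band is the interquartile range of all genes tested, from -0.22 to 0.13. Complex III with cytochrome c has the lowest median, at -0.44, and Cox6a2 lies off the scale.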

How the data were processed

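RNA was sequenced from 3 Visomitin and 3 Control libraries of stranded mRNA. The deposited values are TPM per gene, which the authors computed within each library; fastp, HISAT2 and StringTie are named, with no version, per the submitters' processing notes. Build, annotation and strand setting: not given in the sources used here. Symbols from a reference table matched 51884 of 57180 identifiers. Genes reaching 1 TPM in 3 or more libraries, 11753 in all, were fitted as log2(TPM + 1) with limma 3.58.1 (R 4.3.3; eBayes with a trend, group as the only term), two-sided, with Benjamini-Hochberg adjustment over all of them at 0.05. Fold changes on this scale understate those of low genes. Column totals carry no depth, and precision is limited by there being 3 libraries a group. At most 0.391% of tested genes had identical values in a pair of libraries.

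All 35 members are named whatever their result, with up to 4 genes of lowest p from each list of other respiratory genes, the most abundant markers and the 4 mitochondrially encoded genes in full. Genes listed at 0, tissue-restricted isoforms, overlapping genes and other markers were named after their values were seen, and no gene is named of marker lists at trace levels. The members, lists and motifs were chosen with earlier results of these data known. Near-identical copies were sought by shared 31-base words of GENCODE M21 transcripts. Promoter windows are RefSeq's on GRCm38.p6. Alternatives were 0.1 and 5 as pseudocount, other filters, 2 scalings, no trend, array weights, a block for the library number, and each library left out.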

Additional observations from a re-analysis of the deposited data

How the results depend on the processing

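Over 16 alternatives a member, Cycs, Cyc1 and Sco2 kept their calls in each. Cox6a2 was called in the 15 that tested it, but its Visomitin levels alone brought it past the filter. The fits with a library left out kept the filter set on all libraries. The calls of Cox6a2 under that filter are therefore not evidence of their own. The direction was kept in all alternatives for 33 of the 35 members. The exceptions, neither of them called, were Cox7a2l (-0.0071 with array weights, -0.0322 to 0.11 with a library left out) and Cox7b (0.13 with array weights, -0.26 to 0.11 with a library left out); the changes of sign came without Control 3 and Visomitin 3. The count of members that fell was 22 with array weights, where 13.4% of all genes tested fell, and 3 to 16 with a library left out, where 2.08% to 4.77% of all genes fell. Under the other settings it was 7 to 13, with 1.38% to 8.74% of the genes that each setting tested. With array weights 3 genes of complex II fell, 10 of complex III and cytochrome c and 9 of complex IV. That fit rests largely on Visomitin 2 in its group, with a weight of 4.164 against 0.257 and 0.776 for Visomitin 1 and 3. Without the trend 0 of complex II fell. In complex IV 1 fell with no filter on low values, and 4 after the length and GC correction, which was chosen after seeing the data. The cause of these changes was not tested. With a library left out the ranges were 0 to 1 for complex II, 2 to 8 for complex III and cytochrome c and 1 to 7 for complex IV. These fits hold 5 libraries. With a mean of at least 5 TPM required, 0 members rose, because Cox6a2 was then not tested. The log2 ratio of Cox6a2 to Cox6a1 differed by 1.13 with a pseudocount of 5, 3.36 with 0.1, 2.26 after median-ratio scaling and 2.07 to 2.57 with a library left out. With the library number as a replicate block 9 members fell and 1 rose, and the ratio differed by 2.28. Libraries of the same number deviated together with correlations of 0.05, 0.02 and 0.17, and Visomitin 2 correlated best with another number, so no pairing was assumed. TPM hold no depth, so precision at low genes such as Cox6a2 cannot be given from counts.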
